A study of Mus musculus and Rattus norvegicus with 24 samples.

Results

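The 10 genes described here belong to the Notch pathway and were followed in ischaemic brain tissue of mice and rats: the receptors Notch1 and Notch3, the ligands Dll1, Dll4 and Jag1, the modifier Lfng, and the target genes Hes1, Hes5, Hey1 and Hey2. Members were the array features, called transcript clusters, whose platform annotation gives one of these symbols. All 10 were measured in both species, among 22180 mouse and 18166 rat genes tested. Adult male C57BL/6 mice, aged 8 to 10 weeks, and adult male Sprague-Dawley rats, aged 8 to 12 weeks, had permanent middle cerebral artery occlusion (pMCAO), in which a filament closes the artery and is left in place. The right artery was closed in mice and the left in rats. Sham animals had the same surgery and isoflurane anaesthesia without the occlusion. Pieces of 3 by 3 mm were taken from the penumbra, the zone around the ischaemic core, or from the matching side of sham brains, 2 h or 6 h after surgery. The 8 groups (species by time by surgery) held 3 animals each, with 1 whole-transcript array per animal, 24 arrays in all.

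Notch receptors are single-pass membrane proteins that are cut when a ligand of the Delta or Jagged family on a neighbouring cell binds them. The released intracellular part enters the nucleus, joins the DNA-binding protein RBPJ and switches on target genes, of which the best known are the Hes and Hey transcriptional repressors. Fringe enzymes such as Lfng add a sugar to the receptor and change which ligands it answers to. In adult brain the pathway is known for maintaining neural stem cells and astrocytes, and in blood vessels Dll4 on endothelial cells and Notch3 on mural cells are its main members.

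The results turn on Dll4, Lfng, Hes1 and Hes5, so the promoters of those with an entry are shown first, with that of Hey2 as the other member that holds the RBPJ site. The RefSeq promoter table (mouse build GRCm38.p6) held 8 of the 10 members, with no entry matched for Hes1 or Hey1. Rat promoters were not available, so every sequence is that of mouse, while the Hes5 call was made in rat. The RBPJ core TGGGAA was searched on both strands in the 250 bases before each annotated start. It occurred in 21.6% of all 32851 promoters, and at 2 or more places in 2.77%. Among the 8 members it was found in Hes5 and Lfng, with 2 matches each, and in Hey2, with 1. The sequences below run 5′ to 3′ on the gene's strand, with matches in capitals.
Hes5, chr4:154960673-154960922, plus strand: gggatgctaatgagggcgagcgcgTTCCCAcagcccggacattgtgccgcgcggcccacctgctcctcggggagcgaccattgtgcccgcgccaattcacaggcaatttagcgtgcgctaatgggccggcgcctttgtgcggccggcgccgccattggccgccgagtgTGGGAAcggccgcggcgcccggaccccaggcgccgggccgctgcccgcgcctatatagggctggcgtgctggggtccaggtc
Lfng, chr5:140607091-140607340, plus strand: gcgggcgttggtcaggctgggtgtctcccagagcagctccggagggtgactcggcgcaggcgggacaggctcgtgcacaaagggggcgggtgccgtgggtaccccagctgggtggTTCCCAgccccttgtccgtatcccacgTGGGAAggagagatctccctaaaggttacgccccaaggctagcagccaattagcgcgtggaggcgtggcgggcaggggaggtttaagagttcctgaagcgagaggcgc
Hey2, chr10:30842784-30843033, minus strand: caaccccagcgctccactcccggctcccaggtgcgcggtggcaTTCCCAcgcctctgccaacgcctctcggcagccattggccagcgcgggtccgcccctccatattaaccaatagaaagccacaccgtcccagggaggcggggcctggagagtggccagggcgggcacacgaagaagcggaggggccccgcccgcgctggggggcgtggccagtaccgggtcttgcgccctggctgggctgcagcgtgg
Dll4, chr2:119325534-119325783, plus strand: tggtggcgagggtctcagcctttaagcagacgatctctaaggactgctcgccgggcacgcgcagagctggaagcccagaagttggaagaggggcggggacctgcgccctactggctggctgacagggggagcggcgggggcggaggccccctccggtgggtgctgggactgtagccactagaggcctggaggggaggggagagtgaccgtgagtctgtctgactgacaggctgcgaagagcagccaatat
In Hes5 the matches lay at -226 to -221 and -82 to -77 from the start, in Lfng at -135 to -130 and -108 to -103, and in Hey2 at -207 to -202. Dll4 held none in this window. The site CACGNG, to which Hes and Hey repressors bind, was also searched on both strands and occurred in 23.5% of promoters. It was found in 5 of the 8 members: Lfng at 3 places, Jag1 at 2, and Dll4, Notch3 and each of the 2 promoters of Dll1 at 1. One of the Lfng matches, at -112 to -107, overlaps its second RBPJ core. A match describes letters in the sequence and is no measured binding.

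Values are the deposited log2 expression values, so a difference of 1 is a 2-fold change. Array medians on that scale were 6.03 to 6.06 in mouse at 2 h and 5.92 to 5.96 at 6 h, and 6.67 to 6.75 in rat at 2 h and 5.82 to 5.87 at 6 h. Levels were therefore compared only between pMCAO and sham of the same time and species. Defining neuron markers had mean log2 levels of 10.55 to 10.94 over the mouse arrays and 10.93 to 11.71 over the rat arrays. No detection calls came with the values, so no member or marker was called absent. In bulk tissue, fewer cells of a type and less RNA per cell cannot be told apart.

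Of the 10 members, 4 changed in at least 1 of the 4 pMCAO comparisons. Dll4 rose at 6 h in both species. Lfng fell in mouse at both times. Hes1 fell in rat at 2 h, and Hes5 fell in rat at 6 h. A gene was called at a Benjamini-Hochberg adjusted p under 0.05 in limma, adjusted over all genes of the species. In mouse at 2 h 0 members rose and 1 fell, beside 0.149% of all genes in each direction. An unadjusted p under 0.05 in limma was found for 4 members, beside 1711 of the 22180 genes. In mouse at 6 h 1 rose and 1 fell, beside 3.21% and 4.23% of all genes, with 3 members and 5176 genes at an unadjusted p under 0.05. In rat at 2 h 0 rose and 1 fell, beside 0.033% of all genes in each direction. There 1 member had an unadjusted p under 0.05, beside 1287 of the 18166 genes. In rat at 6 h 1 rose and 1 fell, beside 2.85% and 3.62%, with 3 members and 4008 genes at an unadjusted p under 0.05. These counts over all genes are also the background for the unadjusted counts of markers and other pathway genes below. Members whose pMCAO and sham values did not overlap numbered 2, 3, 1 and 3 of 10 in the same order, beside 14.6%, 25.3%, 13.1% and 24.5% of all genes, which is near the background. The median log2 fold change of the members was 0.10, -0.0017, 0.04 and -0.04, beside -0.0067, -0.02, -0.0033 and -0.02 over all genes. Positive estimates numbered 7, 5, 6 and 4 of the 10.

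**Figure D1:**
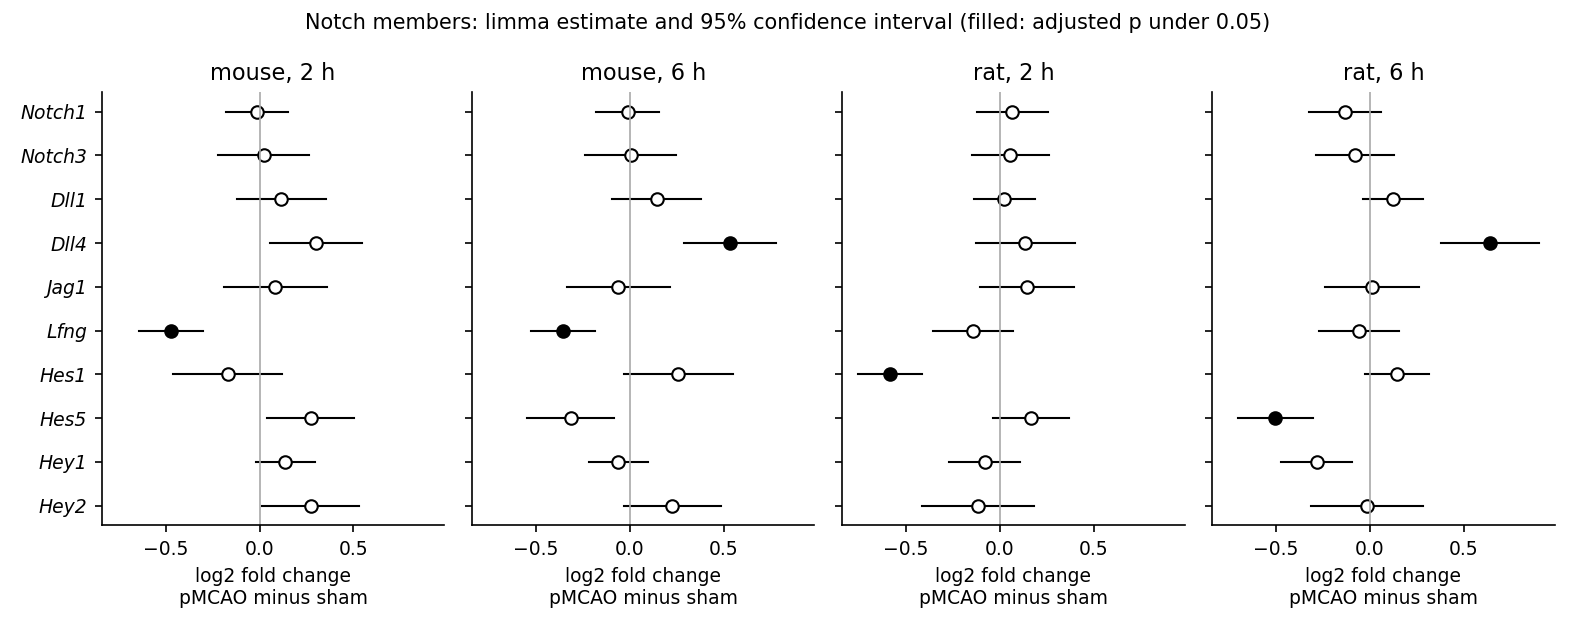
Log2 fold change of pMCAO over sham with its 95% confidence interval (horizontal axis, limma, n = 3 per group) for each of the 10 members (rows) in mouse and rat at 2 h and 6 h (panels). Filled points mark the 6 calls at adjusted p under 0.05, and the receptors stay near 0 in every panel.

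The ligand gene Dll4, which encodes Delta-like 4 of the vascular endothelium, gave the largest rise among the members. In mouse at 6 h (cluster 17374792) it read 5.47, 5.52 and 5.23 in the sham animals and 6.06, 5.77 and 5.99 after pMCAO. The sham values and that of pMCAO replicate 2 lay below the array medians of 5.92 to 5.96, so the cluster was dim. All pMCAO animals were above all sham animals, and the rise was 0.53 ± 0.11 (log2 fold change ± SE, n = 3 per group, adjusted p = 0.0179), or 1.45-fold. In rat at 6 h (cluster 17765071) the sham animals read 5.99, 5.53 and 6.00 and the pMCAO animals 6.48, 6.45 and 6.51. The pMCAO animals lay close together above every sham, with sham replicate 2 the lowest, and the rise was 0.64 ± 0.12 (adjusted p = 0.00948), or 1.56-fold. At 2 h the mouse shams read 5.46, 5.38 and 5.64 and the pMCAO animals 5.76, 5.97 and 5.66. The groups did not overlap there, but the difference of 0.30 ± 0.11 did not pass (adjusted p = 0.528). At 2 h in rat the shams at 6.65, 6.89 and 6.65 overlapped the pMCAO animals at 6.93, 6.92 and 6.75 (0.14 ± 0.12, adjusted p = 0.869). A further mouse cluster (17389855) is listed under Dll4 together with another gene, so it was not used; it differed by -0.18 at 6 h and did not pass (adjusted p = 0.368). The mouse call at 6 h was lost without pMCAO replicate 1 (adjusted p = 0.05003), pMCAO replicate 3 (0.0533) or sham replicate 3 (0.0693), and with the 6 arrays of that time alone (0.0625), within 0.00665 to 0.0711 over all alternatives. The rat call held whichever array was left out (adjusted p = 0.0155 to 0.0291) and was lost with the 6 arrays alone (0.0543), the highest of a range that began at 0.00384.

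Endothelial marker genes did not rise with Dll4 as a list. In mouse at 6 h, of 12 measured markers 1 rose and 1 fell, beside 3.21% and 4.23% of all genes, with a median of -0.02. In limma 5 of the 12 had an unadjusted p under 0.05. Their mean log2 level was 6.74 to 6.98 in sham and 6.71 to 6.97 after pMCAO. The marker that rose was Cdh5 (0.58, adjusted p = 0.0277), which encodes the junction protein VE-cadherin. The marker that fell was Slco1a4 (-0.82, adjusted p = 0.00209), an organic anion transporter of the blood-brain barrier. In rat at 6 h, of 9 measured markers 0 rose and 3 fell, beside 2.85% and 3.62% of all genes, with a median of -0.27. In limma 7 of the 9 had an unadjusted p under 0.05, and the estimates went both ways, from -1.90 for Slco1a4 to 0.47 for Cdh5. Their mean log2 level was 7.11 to 7.38 in sham and 6.75 to 7.12 after pMCAO. The rat markers that fell were Slco1a4 (-1.90, adjusted p = 0.000124), Itm2a (-0.74, adjusted p = 0.0217) and the sialomucin gene Emcn (-0.71, adjusted p = 0.0138). In rat Cdh5 differed by 0.47 and did not pass (adjusted p = 0.154). The part of these markers in the Dll4 result was not tested.

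**Figure D2:**
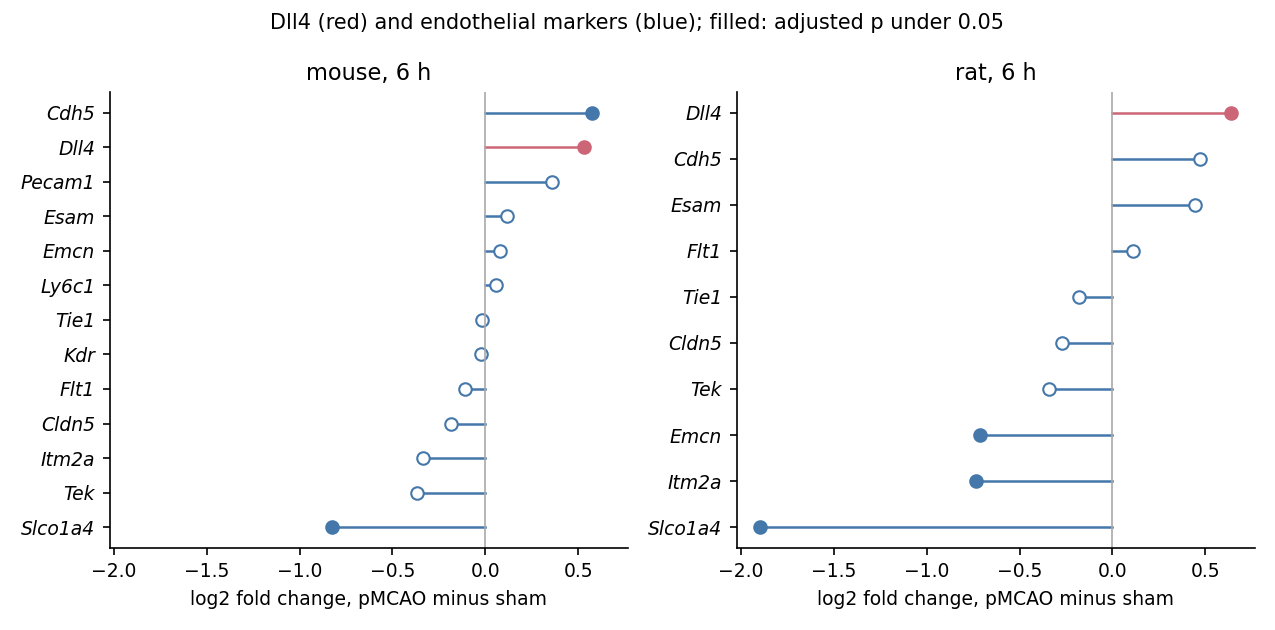
Log2 fold change of pMCAO over sham at 6 h (horizontal axis) for Dll4 (red) and each measured endothelial marker (blue), in mouse (12 markers) and rat (9 markers), sorted by value. Filled points passed adjusted p under 0.05: Dll4 is at 0.53 and 0.64, and Slco1a4 is lowest in both panels at -0.82 and -1.90.

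The ligand genes Dll1 and Jag1 passed in no comparison. Dll1, a Delta ligand of neural progenitors, differed by 0.12 and 0.14 in mouse at 2 h and 6 h and by 0.02 and 0.12 in rat (adjusted p = 0.368 to 0.975). Dll1 and Dll4 were the 2 members with a positive estimate in all 4 comparisons. Mouse pMCAO animals at 2 h read 6.14, 6.63 and 6.26 for Dll1 against shams of 6.20, 6.20 and 6.28, so replicate 2 alone was high. A further mouse Dll1 cluster (17333549) differed by 0.24 at 2 h and -0.10 at 6 h, and also did not pass (adjusted p = 0.600 and 0.598 over all single-symbol clusters). Jag1, a Jagged ligand, differed by 0.08 and -0.06 in mouse and by 0.15 and 0.01 in rat (adjusted p = 0.820 to 0.977). Its rat values at 2 h were 7.06, 7.06 and 6.99 in sham and 7.35, 7.03 and 7.17 after pMCAO, where 1 pMCAO animal lay inside the sham range.

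The receptor genes Notch1 and Notch3 passed in no comparison. Notch1 differed from sham by -0.01 and -0.01 in mouse and by 0.07 and -0.13 in rat at 2 h and 6 h (adjusted p = 0.410 to 0.983). Over the 4 comparisons its 95% intervals stayed between -0.32 and 0.26. Notch3, the receptor of pericytes and vascular smooth muscle, differed by 0.02 and 0.0067 in mouse and by 0.06 and -0.08 in rat (adjusted p = 0.681 to 0.981), with intervals between -0.29 and 0.27. For both genes the pMCAO and sham ranges overlapped in every comparison. For Notch1 in mouse at 6 h the shams read 7.23, 7.15 and 7.30 and the pMCAO animals 7.20, 7.27 and 7.18.

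Lfng, the fringe glycosyltransferase that modifies Notch receptors, fell in mouse at both times. At 2 h it read 7.75, 7.61 and 7.74 in sham mice and 7.11, 7.27 and 7.30 after pMCAO. Every pMCAO mouse was below every sham mouse, and Lfng fell by 0.47 on the log2 scale (SE 0.08, adjusted p = 0.0309), a fold of 0.720. At 6 h sham mice read 7.66, 7.45 and 7.53 and pMCAO mice 7.13, 7.17 and 7.27. The groups again did not overlap, and Lfng fell by 0.36 (SE 0.08, adjusted p = 0.0205), a fold of 0.781. The change in effect between the times was 0.12 ± 0.11 and did not pass (adjusted p = 0.680). In rat the pMCAO animals at 2 h read 7.50, 7.82 and 7.42 and the shams 7.71, 7.63 and 7.83, so the groups overlapped, with pMCAO replicate 2 high (-0.14 ± 0.10, adjusted p = 0.814). At 6 h the rat shams read 6.90, 6.88 and 6.86 and the pMCAO animals 6.85, 6.75 and 6.86 (-0.06 ± 0.10, adjusted p = 0.779). The mouse call at 2 h was lost without any 1 of the 6 arrays (adjusted p = 0.0642 to 0.156) and with those 6 alone (0.147), in a range from 0.00638 to 0.170 over all alternatives. At 6 h it was lost on leaving out pMCAO replicate 1 or 2, or sham replicate 1 or 3 (adjusted p = 0.0546 to 0.0650), and with the 6 arrays alone (0.0810), in a range from 0.00577 to 0.0810.

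Among mouse cell type markers, oligodendrocyte precursor genes were lower in every pMCAO mouse than in every sham at 2 h. Their mean log2 level was 7.94 to 8.02 against 8.13 to 8.20, with a median of -0.23 over 7 genes, of which 0 passed in limma and 3 had an unadjusted p under 0.05. In the same mouse 2 h comparison the mean of astrocyte markers was lower without overlap (9.14 to 9.21 against 9.25 to 9.32), with a median change of -0.04. The mean of neuron markers was also lower (10.910 to 10.914 against 10.921 to 10.941), with a median change of -0.02. Neutrophil markers were higher (5.04 to 5.26 against 4.92 to 4.96), and 0 markers of these 3 lists passed in limma, with 1, 1 and 3 at an unadjusted p under 0.05. At 6 h in mouse the striatal neuron markers were lower, at 6.82 to 7.03 after pMCAO against 7.09 to 8.24 in sham. Among 7 measured there were 0 rises and 2 falls, beside 3.21% and 4.23% of all genes, and the median was -0.70. All 7 had an unadjusted p under 0.05, and the shams alone covered a wide range. The mean of cortical excitatory neuron markers was lower too (8.92 to 8.97 against 9.07 to 9.10, 2 of 7 fell). Their median change was 0.0033, so the lower mean was not shared across the list. General neuron markers were lower as well (10.55 to 10.61 against 10.67 to 10.71, 1 of 8 fell, median -0.125). Oligodendrocyte markers were higher (9.20 to 9.30 against 8.86 to 9.19), with 0 of 8 passing in limma and 5 at an unadjusted p under 0.05. The part of these markers in the Lfng and Dll4 results of mouse was not tested.

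Hes1, a basic helix-loop-helix repressor induced by Notch, fell in rat at 2 h. Sham rats read 8.02, 8.14 and 8.22, and pMCAO rats 7.61, 7.53 and 7.48. All pMCAO rats lay below all shams, and Hes1 fell by 0.59 on the log2 scale (SE 0.08, adjusted p = 0.0165), a fold of 0.666. By unadjusted p it ranked 8 among the 18166 rat genes of that comparison. In mouse at 2 h the shams read 7.64, 7.50 and 7.21 and the pMCAO animals 7.42, 7.33 and 7.09, which overlapped (-0.17 ± 0.13, adjusted p = 0.809). At 6 h the estimates were positive and did not pass: in rat, shams at 6.56, 6.65 and 6.50 and pMCAO at 6.71, 6.80 and 6.63 (0.14 ± 0.08, adjusted p = 0.315). In mouse at 6 h, shams at 6.83, 6.76 and 6.58 overlapped pMCAO animals at 6.83, 6.91 and 7.21 (0.26 ± 0.13, adjusted p = 0.268). The rat effect changed from 2 h to 6 h by 0.73 ± 0.11 (adjusted p = 0.0203). It was the only member whose change over time passed, beside 0.231% of all rat genes. The rat call at 2 h was lost without pMCAO replicate 2 (adjusted p = 0.0599) or 3 (0.0845) or sham replicate 2 (0.0901) or 3 (0.136), in a range from 0.00419 to 0.136 over all alternatives. The call on the change over time was lost without 7 of the 12 rat arrays left out in turn. These were 2 h pMCAO replicate 3, 2 h sham replicates 2 and 3, 6 h pMCAO replicate 1 and all 3 of the 6 h shams (adjusted p = 0.0508 to 0.0725). In rat at 2 h astrocyte markers were lower in every pMCAO animal, at a mean of 10.34 to 10.41 against 10.45 to 10.58 in sham. Of 8 measured, 0 passed in limma and 2 had an unadjusted p under 0.05, with a median of -0.10. Oligodendrocyte precursor markers were also lower without overlap (8.71 to 8.78 against 8.85 to 8.91), as were meningeal fibroblast markers (7.28 to 7.31 against 7.35 to 7.43, median -0.085). Pdgfra (-0.24) is in both lists and had the lowest adjusted p of the meningeal list (0.622 in limma). Pericyte and smooth muscle markers were higher (7.51 to 7.58 against 7.41 to 7.51, without overlap), and so were neutrophil markers (5.88 to 6.12 against 5.57 to 5.72). Of these 4 lists 0 markers passed in limma, with 3, 1, 1 and 3 at an unadjusted p under 0.05. The part of all these lists in the Hes1 result was not tested.

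Hes5, the Hes repressor of neural stem cells and some astrocytes, fell in rat at 6 h. Sham rats (cluster 17804803) read 6.06, 6.13 and 5.97 and pMCAO rats 5.49, 5.58 and 5.58. The pMCAO values lay below the array medians of 5.82 to 5.87 and the sham values a little above them. All pMCAO rats lay below all shams, and Hes5 fell by 0.50 on the log2 scale (SE 0.09, adjusted p = 0.00857), a fold of 0.705. This call held whichever of the 6 arrays was left out (adjusted p = 0.0157 to 0.0401) and under all 8 other settings (0.00398 to 0.0256). At 2 h rat shams at 6.42, 6.66 and 6.42 overlapped pMCAO rats at 6.56, 6.83 and 6.61, and the estimate had the other sign (0.17 ± 0.09, adjusted p = 0.767). The rat change from 2 h to 6 h was -0.67 ± 0.13 and did not pass (adjusted p = 0.0711). It passed with trend and robust moderation (0.0458) and without dim genes (0.0343), in a range up to 0.197 over all alternatives. In mouse the cluster used for Hes5 (17422443) gave 0.27 ± 0.11 at 2 h (adjusted p = 0.569) and -0.31 ± 0.11 at 6 h (adjusted p = 0.0970). At 6 h mouse shams read 6.53, 6.26 and 6.51 and pMCAO animals 6.22, 6.11 and 6.03, without overlap. The other mouse Hes5 cluster (17433696) differed by 0.36 ± 0.11 at 2 h (adjusted p = 0.408) and 0.09 ± 0.11 at 6 h (adjusted p = 0.675), so the 2 clusters disagree in sign at 6 h. In rat at 6 h astrocyte markers had a median of -0.07 with 0 of 8 passing in limma (1 at an unadjusted p under 0.05), and sham levels of 9.81 to 9.95 overlapped pMCAO levels of 9.79 to 9.82. Oligodendrocyte precursor markers were lower without overlap, at 7.73 to 7.976 against 7.984 to 8.06 (0 of 7 passing in limma, 1 at an unadjusted p under 0.05, median -0.15). Their part in the Hes5 result was not tested.

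**Figure D3:**
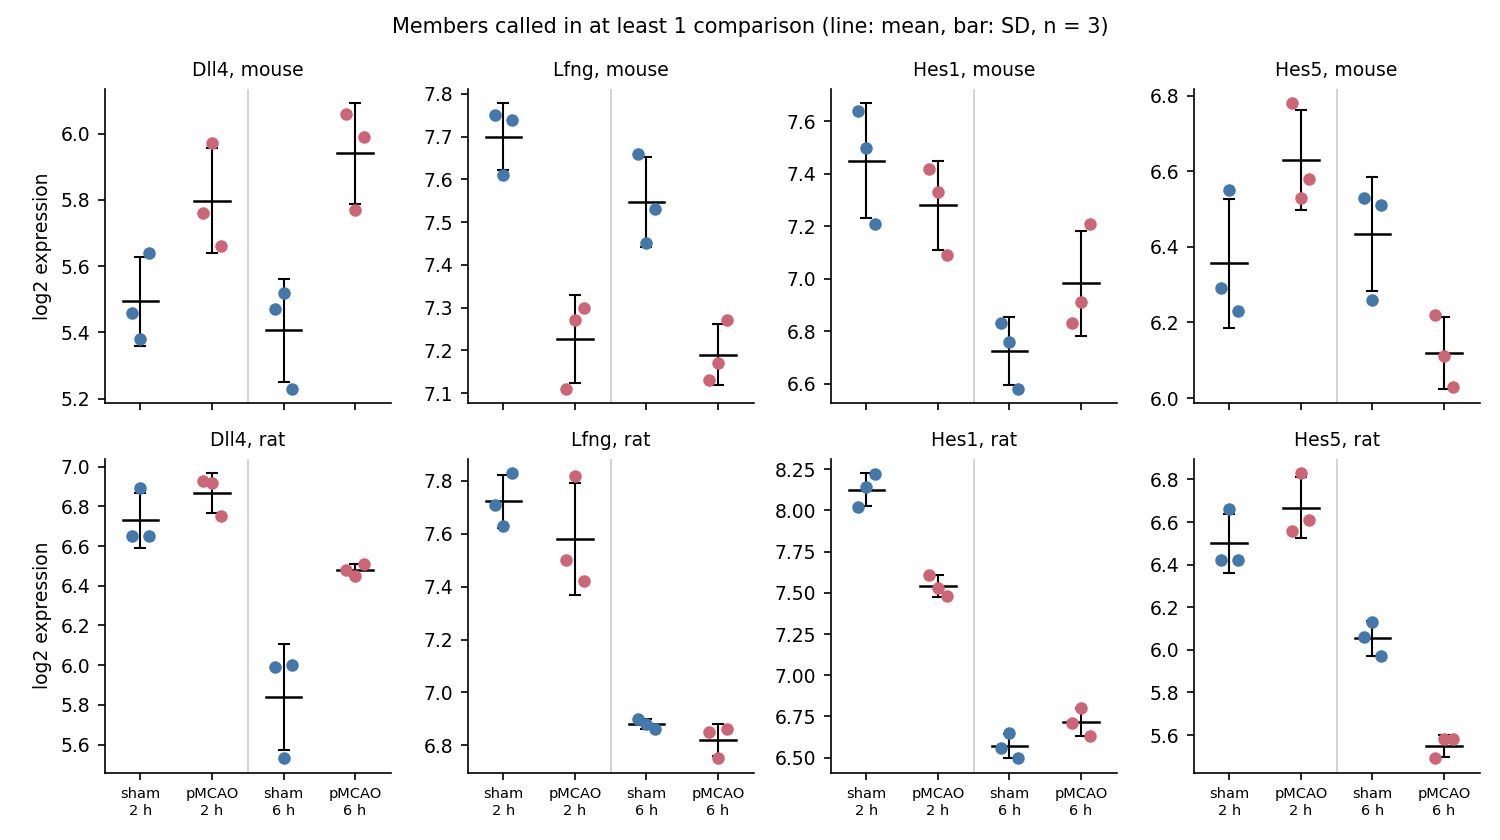
Log2 expression (vertical axis, a separate range in each panel) of Dll4, Lfng, Hes1 and Hes5 in every animal by surgery and time, mouse above and rat below. Points are single animals, lines are means and bars SD (n = 3). Dll4 is higher after pMCAO at 6 h in both species, Lfng lower in mouse at both times, Hes1 lower in rat at 2 h and Hes5 lower in rat at 6 h. Levels of different times are not comparable.

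The Hey genes, repressors related to Hes with roles in vessels and heart, passed in no comparison. Hey1 in rat at 6 h came nearest: shams read 7.04, 7.21 and 7.04 and pMCAO rats 6.95, 6.82 and 6.67, without overlap. The difference was -0.28 ± 0.09 (adjusted p = 0.0740), and it passed when dim genes were left out (0.0457), in a range up to 0.230. The other Hey1 differences were 0.14 and -0.06 in mouse and -0.08 in rat at 2 h (adjusted p = 0.664 to 0.895). Hey2 differed by 0.27 and 0.23 in mouse at 2 h and 6 h (adjusted p = 0.625 and 0.279). In rat it differed by -0.12 and -0.02 (adjusted p = 0.905 and 0.966). In mouse at 6 h, Hey2 sham replicate 1 at 7.34 lay among the pMCAO values of 7.31, 7.26 and 7.51, and the other shams were at 7.09 and 6.97.

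**Figure D4:**
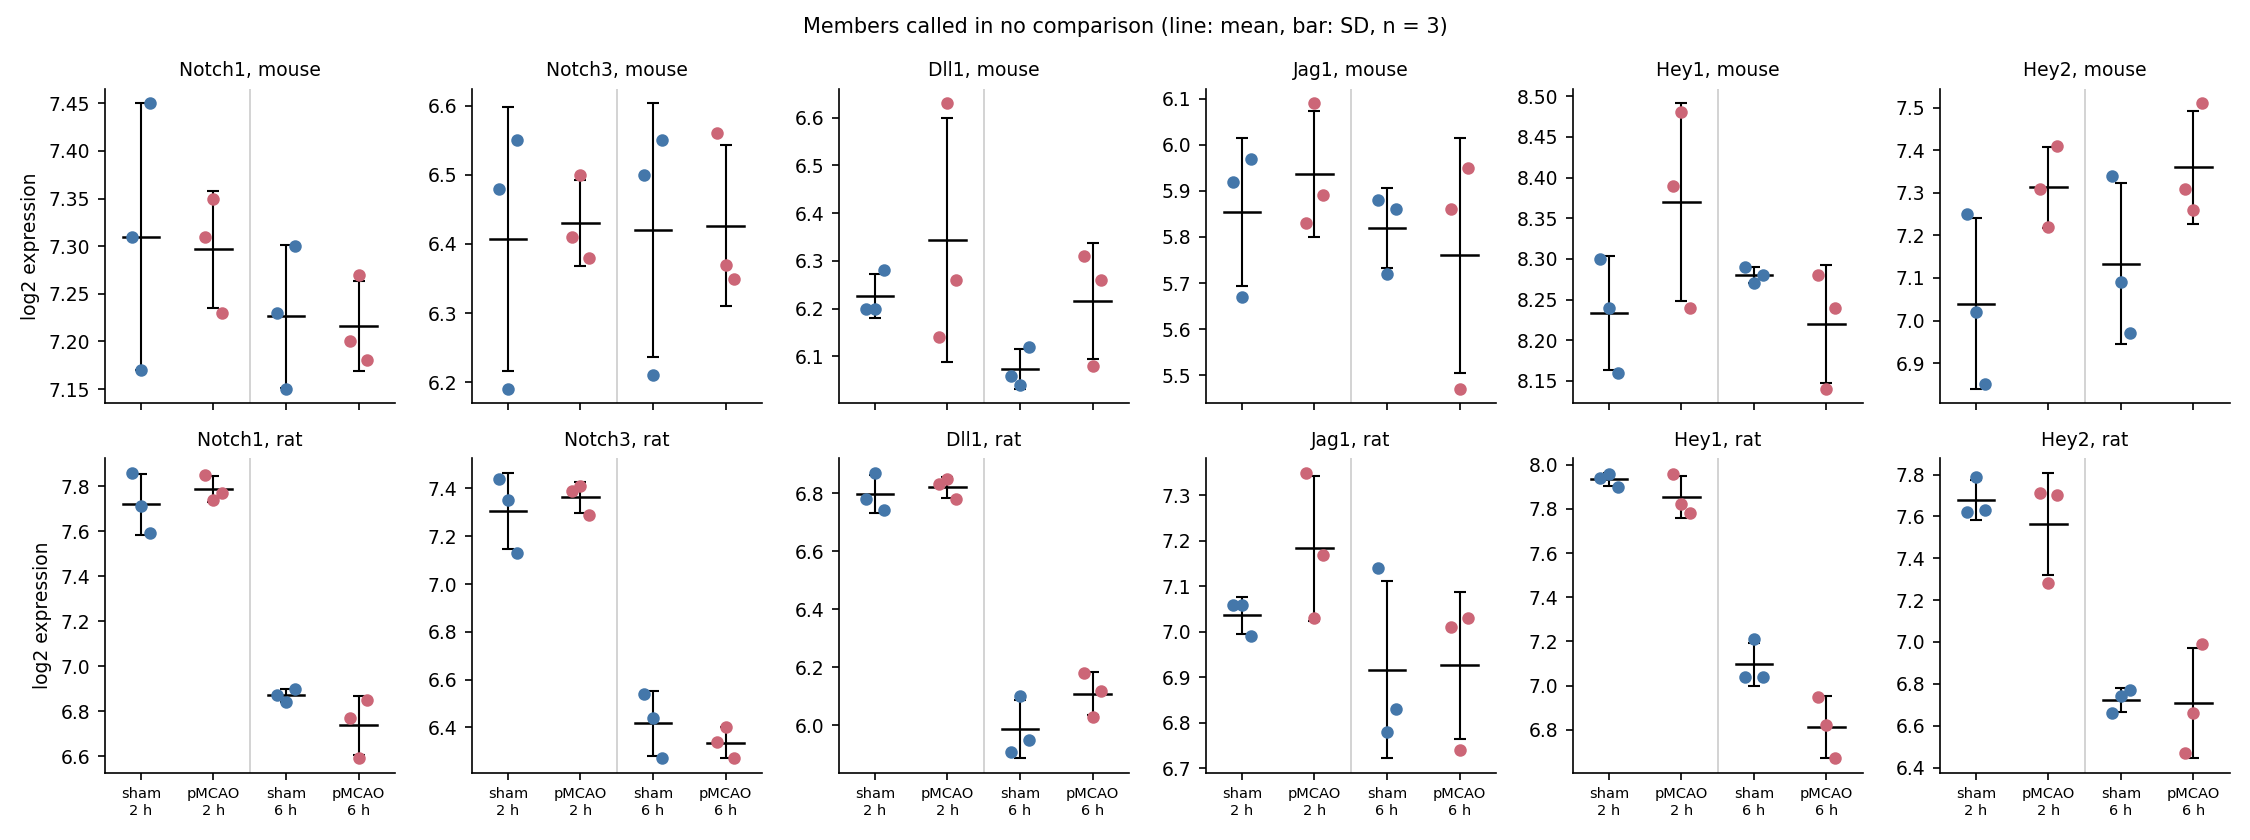
Log2 expression (vertical axis, a separate range in each panel) of the 6 members called in no comparison, in every animal by surgery and time, mouse above and rat below. Points are single animals, lines are means and bars SD (n = 3). The sham and pMCAO points overlap in every pair of groups apart from Hey1 in rat at 6 h.

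Whether the 2 species responded differently was tested as the difference of their log2 fold changes over 14204 shared symbols. No member passed in limma at 2 h (beside 0.0141% of symbols) or at 6 h (beside 2.27%), while 3 members at 2 h and 1 at 6 h had an unadjusted p under 0.05. For Dll4 at 6 h the mouse minus rat difference was -0.11, with a 95% interval from -0.45 to 0.23. For Lfng it was -0.33 (interval -0.59 to -0.07, adjusted p = 0.998) at 2 h and -0.30 (-0.56 to -0.04, adjusted p = 0.239) at 6 h. For Hes1 at 2 h it was 0.42 (0.09 to 0.74, adjusted p = 0.998), and for Hes5 at 6 h 0.19 (-0.10 to 0.48, adjusted p = 0.564). Calls in 1 species alone, for Lfng, Hes1 and Hes5, were thus not shown to differ between the species. In mouse 0 members passed for the change from 2 h to 6 h, beside 0.171% of genes. For 3115 of the 22180 genes, and for 2 members, the unadjusted p in limma was under 0.05. These members were Hes5 (-0.59 ± 0.15, adjusted p = 0.132) and Hes1 (0.43 ± 0.19, adjusted p = 0.333), with the same signs as in rat. For Dll4 the change was 0.23 ± 0.16 in mouse (adjusted p = 0.550) and 0.50 ± 0.17 in rat (adjusted p = 0.289).

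A list of 64 other Notch pathway genes had 60 members on the mouse array and 52 on the rat array, and 8 calls were made in all 4 comparisons. In mouse at 2 h 1 of 60 rose and 0 fell, beside 0.149% of all genes in each direction. It was Hes3, a Hes repressor of neural progenitors, with shams at 5.30 to 5.45 and pMCAO mice at 5.71 to 5.99 (0.49 ± 0.08, adjusted p = 0.0313). All its values lay below the array medians of 6.03 to 6.06, so the cluster was dim. Whether the calls of these other pathway genes hold with an array left out was not tested. In mouse at 6 h 3 rose and 2 fell of 60, beside 3.21% and 4.23% of all genes, which is near the background. Of the Groucho co-repressor genes, Tle3 rose (0.57 ± 0.13, adjusted p = 0.0220) and Tle4 fell (-0.55 ± 0.10, adjusted p = 0.0104), while Tle1 and Tle2 each differed by -0.05 and did not pass (adjusted p = 0.803 and 0.839). Numbl, a relative of the Notch inhibitor Numb, rose (0.45 ± 0.08, adjusted p = 0.0112), and so did Dtx4, a Deltex ubiquitin ligase (0.32 ± 0.08, adjusted p = 0.0344). The histone acetyltransferase gene Ep300, a co-activator of the Notch complex, fell (-0.23 ± 0.06, adjusted p = 0.0372). In rat at 2 h 0 rose and 0 fell of 52 in limma, beside 0.033% of all genes in each direction, with 6 at an unadjusted p under 0.05. In rat at 6 h 1 rose and 1 fell of 52, beside 2.85% and 3.62%: the cyclin gene Ccnd1 rose (0.29 ± 0.08, adjusted p = 0.0499), and Itch, a ubiquitin ligase that targets Notch, fell (-0.33 ± 0.08, adjusted p = 0.0284). The receptor-cutting genes, 8 measured in mouse and 6 in rat and including those of gamma-secretase, passed in no comparison, with 1, 3, 0 and 2 at an unadjusted p under 0.05 in the order above. Nor did the other ligands (6 in each species, with 0, 1, 0 and 2 at an unadjusted p under 0.05) or the receptors Notch2 and Notch4 (0 in each). The targets and their relatives, 10 in each species with Hes3 and Ccnd1 among them, had 4, 2, 0 and 2 at an unadjusted p under 0.05. Their medians were 0.095, 0.04, 0.06 and 0.01. Over all the listed pathway genes measured, the unadjusted counts were 8, 19, 6 and 14. The medians over all these genes were -0.03, -0.03, -0.02 and -0.03 for mouse at 2 h and 6 h and rat at 2 h and 6 h, close to those of all genes.

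Other marker lists moved at 6 h in both species, by the mean level of their markers in each animal. Microglia markers were lower in every pMCAO animal by that mean. In mouse 3 of 7 fell (median -0.21) and in rat 3 of 6 (median -0.38), beside 4.23% and 3.62% of all genes. Neutrophil markers were higher in every pMCAO animal by that mean. In mouse 1 of 10 rose (median 0.12) and in rat 2 of 9 (median 0.35), beside 3.21% and 2.85% of all genes. The mouse call was Retnlg (1.19), a dim marker with a mean level of 3.98, below the array medians. In mouse Camp, Csf3r and Cxcr2 had negative estimates and the other markers positive ones, so the higher mean was not shared by every marker. Pericyte and smooth muscle markers, cells that carry Notch3, were higher in every pMCAO mouse (6.84 to 6.89 against 6.75 to 6.83), with 0 calls of 12 in limma (1 at an unadjusted p under 0.05, median 0.03). They overlapped in rat, with 1 rise of 10 (median -0.02). In rat at 6 h cortical excitatory neuron markers had a lower mean without overlap (9.36 to 9.48 against 9.57 to 9.67, 1 of 6 fell, median -0.185). In mouse their mean was lower too, but the median was 0.0033. Striatal neuron markers were higher in rat (6.47 to 6.50 against 6.34 to 6.42), and so were choroid plexus and ependyma markers (5.40 to 5.54 against 5.15 to 5.38). Of these 2 lists 0 markers passed in limma, with 1 of each at an unadjusted p under 0.05. The part of these lists in the 6 h results of Dll4, Lfng and Hes5 was not tested.

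**Figure D5:**
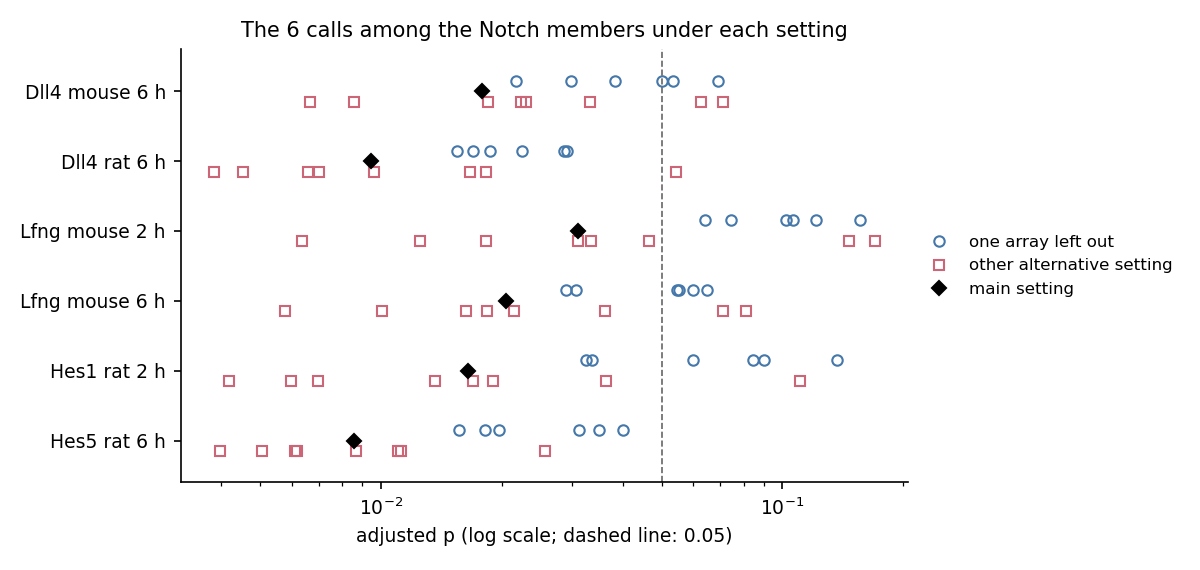
Adjusted p (horizontal axis, log scale) of the 6 calls among the members under the main setting (black), with 1 array left out (blue circles) and under the other alternative settings (red squares). Hes5 in rat at 6 h stays left of the dashed line at 0.05 in all of them, and Lfng in mouse at 2 h lies right of it whichever array is left out.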

How the data were processed

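Sample titles gave each array's species, time, surgery and replicate number. The characteristic for time, which is 2 h throughout, goes against them and was not used. Log2 values per transcript cluster were deposited by the authors in 1 table per species (12 arrays). The submitters' processing notes name oligo and limma. How background was removed, how arrays were normalized and which genome build was used is not given in the sources used here. A symbol's cluster with the highest mean was used, and clusters listing several symbols were not (1814 mouse, 575 rat). Over all 66 pairs of arrays in a species, at most 2.54% of clusters in mouse and 2.49% in rat had exactly equal values in both arrays. Group means (4 per species, 8 residual degrees of freedom) were fitted with lmFit and eBayes of limma 3.58.1 under R 4.3.3, two-sided, with Benjamini-Hochberg adjustment over all genes of the species. The species difference used Welch-Satterthwaite degrees of freedom. An exact permutation of 3 against 3 cannot go below p = 0.1. The number of arrays limits the precision. The code was tested on simulated arrays. The text names all members, and of the other pathway genes up to 4 past the threshold per comparison, by size (Ep300 as the fifth of 5 was added after its value was seen), and, chosen after their values were seen, single marker genes. Members and lists were chosen with earlier results of these data known. Alternatives were other spread moderation, array weights, quantile normalization, median centring, a filter on genes under the 25th percentile of means, every cluster, the 6 arrays of a time alone, a replicate block and leaving out each array.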

Additional observations from a re-analysis of the deposited data

Results flagged for a closer look

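The effect of pMCAO on Hes1 in rat differed between the times: the log2 fold change at 6 h minus that at 2 h was 0.73 ± 0.11 (limma adjusted p = 0.0203), from -0.59 at 2 h to 0.14 at 6 h. It was the only member whose effect differed between times or species past the threshold. Rat array medians lay at 6.67 to 6.75 for 2 h and 5.82 to 5.87 for 6 h, and the part of this gap in the change was not tested.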

How the results depend on the processing

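Each member kept the sign of its estimate wherever it was called, under every alternative run, and 6 member results lost their call under at least 1 alternative, while 2 gained one. Counted as single refits of a member result, 33 lost a call, 3 gained one and 1304 stayed on their side of the threshold. All genes called at 2 h and 6 h numbered 66 and 1649 for mouse and 12 and 1175 for rat. For the change over time they numbered 38 in mouse and 42 in rat, and for the species difference 2 at 2 h and 323 at 6 h. In that order of results, trend and robust moderation gave 110, 2574 and 28 in the first 3, 351 and 121 for the change and 531 for the species at 6 h. Array weights gave 102 in mouse and 65 in rat at 2 h, 82 for the rat change, and 4 and 200 for the species. The 6 arrays alone gave 23, 246, 44 and 363, and 65 for the species at 6 h. Without dim genes the change counts were 161 and 87. Leaving out 1 array gave 23 to 42 and 616 to 1368 in mouse, 0 (without sham replicate 3, with 822 at an unadjusted p under 0.05) to 16 and 550 to 1268 in rat. It gave 0 (without 2 h sham replicate 2, with 2687 at an unadjusted p under 0.05) to 85 and 11 to 140 for the change, and 0 (with 692 at an unadjusted p under 0.05 without rat pMCAO replicate 3) to 3 and 141 to 386 for the species. Among members, calls were 1 and 2 in mouse and 1 and 2 in rat at 2 h and 6 h. With the 6 arrays alone they were 0 and 0 in mouse (4 and 3 at an unadjusted p under 0.05) and 1 in rat at 6 h. Without 1 array they ranged over 0 to 0 (2 to 4 at an unadjusted p under 0.05), 0 to 2, 0 to 1 and 2 to 2. For the rat change, 1 call became 2 with trend and robust moderation or without dim genes, and 0 to 1 without 1 array. Fewer arrays leave fewer degrees of freedom; other causes were not tested.

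Every same-numbered pair of pMCAO and sham arrays correlated above 0.1 in none of the 4 comparisons (correlations of deviations from group means -0.125 to -0.0136 and -0.00629 to 0.0501 in mouse at 2 h and 6 h, -0.0157 to 0.327 and 0.0229 to 0.0658 in rat), so the numbers were not taken to pair animals. With the replicate block the genes called were 35 and 665 in mouse, 2 in rat at 2 h, 0 (2887 at an unadjusted p under 0.05) and 4 for the change, and 1 for the species at 2 h. Calls among members were 0 for mouse at both times (3 at an unadjusted p under 0.05 in each), 0 for rat at 2 h (2) and 0 for the rat change (3), where limma adjusted p was 0.170 and 0.0713 for Lfng, 0.0711 for Dll4, and 0.110 and 0.0875 for Hes1. Of the arrays, 0 of 6, 3 of 6, 2 of 6 and 4 of 6 correlated best with their own number.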
